A study of Mus musculus with 10 samples.

Results

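The 10 genes described here encode the signalling route that interleukin-7 (IL-7) uses in lymphocyte precursors. They are the receptor chains Il7r and Il2rg, the Janus kinases Jak1 and Jak3, the transcription factors Stat5a and Stat5b, the feedback inhibitors Socs2, Socs3 and Cish, and the kinase gene Pim1. They were chosen by symbol for their place in the pathway, and all 10 were found among the 22923 gene symbols kept for each library. Jak3 was found only on a row that also names Insl3, a hormone gene that overlaps its 3' end, so those values cannot be split between the genes and are called the Jak3 row. Values are FPKM, the fragments counted on a transcript relative to its length and to all fragments mapped in that library. Levels of different genes can be set side by side in this unit.

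RNA was taken from C57bl/6 mice at 4 weeks of age and sequenced in 10 libraries. They covered 5 populations: cycling and quiescent CD4+CD8+ thymocytes from the thymus, and large pre-B cells, small pre-B cells and mature granulocytes from the bone marrow. Each population was sampled once from 2 pooled Control mice (Dyrk1a flox/flox, Mx1-Cre-) and once from 2 pooled CKO mice (Dyrk1a -/-, Mx1-Cre+), so there was 1 library per population and genotype and each value below is that of 1 library. The controls carry the floxed Dyrk1a alleles without Cre, and Cre in the CKO mice is driven by the interferon-responsive Mx1 promoter, which is not restricted to 1 blood lineage. The labels do not name the agent or schedule that induced it.

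The number of sequenced fragments is unknown. FPKM summed to between 360394 and 431868 in the 8 lymphoid libraries and to 830006 and 1074258 in Control and CKO granulocytes. Dyrk1a, which encodes the deleted kinase, was at 31.2 to 37.4 FPKM in the Control and 34.4 to 44.7 FPKM in the CKO libraries, with the CKO library the higher in each population. The deleted exons are not named in the labels, and fragments from outside them count toward the value. The Y-linked gene Ddx3y was at 0 to 0.039 FPKM in the Control and at 7.26 to 16.7 FPKM in the CKO libraries, while Xist, expressed from the inactive X chromosome, was at 23.3 to 65.2 FPKM in the Control and at 8.09 to 45.6 FPKM in the CKO libraries. Y-linked transcript was thus near 0 in the Control pool, and transcripts of both kinds were present in the CKO pool. The sex make-up of the pools and genotype cannot be told apart in any genotype comparison, including that of the X-linked Il2rg. Defining markers matched the lineage named in each label, and their sums do not show maturity. The 8 B lineage markers summed to 1876 to 3782 FPKM in pre-B cells and to at most 8.19 FPKM in thymocytes, the 8 CD4+CD8+ thymocyte markers to 1367 to 2414 FPKM in thymocytes, and 7 granulocyte markers to 43255 and 35740 FPKM in Control and CKO granulocytes. Large pre-B cells also held granulocyte markers, at 635 FPKM in Control and 285 FPKM in CKO. The mature granulocyte libraries held genes of dividing cells, Mki67 at 76.0 FPKM in Control and 95.1 FPKM in CKO and Top2a at 122 and 127 FPKM. Control small pre-B cells held less, 35.0 FPKM of Mki67 and 62.3 FPKM of Top2a.

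IL-7 binds a receptor made of IL-7R-alpha (Il7r) and the common gamma chain (Il2rg), which also serves the receptors for IL-2, IL-4, IL-9, IL-15 and IL-21. JAK1 docks on IL-7R-alpha and JAK3 on the gamma chain. Together they phosphorylate STAT5A and STAT5B, which enter the nucleus and switch on target genes. Among these targets are Cish and the SOCS genes, whose products dampen cytokine receptors, and Pim1, a kinase that favours growth and survival. In the mouse bone marrow IL-7 drives the expansion of early B cell precursors, and its attenuation accompanies exit from the cell cycle and light chain rearrangement in small pre-B cells. CD4+CD8+ thymocytes are known for having little IL-7 receptor, which returns when they are selected to mature.

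STAT5 binds the palindrome TTCNNNGAA. The promoter windows that hold it are those of the receptor gene Il7r and of the feedback genes Socs3 and Cish, and the matching stretches are shown. RefSeq windows on GRCm38.p6, running from 250 bases before to 50 bases after a transcription start, were found for 9 of the 10 genes, 12 windows in all. Socs2 had no entry. The motif reads the same on both strands, and capitals mark it in stretches of 30 bases written 5' to 3' on the gene's strand.
Il7r, chr15:9529999-9530028, minus strand: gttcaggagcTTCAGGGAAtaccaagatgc
Socs3, chr11:117969501-117969530, minus strand: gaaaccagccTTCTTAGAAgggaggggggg
Cish, chr9:107296654-107296683, plus strand: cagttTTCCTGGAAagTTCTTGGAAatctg
The motif began at -142 from the RefSeq start in Il7r, at -154 in Socs3, and at 1 and 12 in Cish. GENCODE, the source of the gene positions below, places the 5' ends at 9530176 in Il7r, 117970047 in Socs3 and 107296026 in Cish. These lie upstream of the RefSeq starts (9529876, 117969366 and 107296659). By that annotation the motifs of all 3 genes lie within the gene. Of all 32851 promoter windows of that length, 8.30% held the motif and 0.457% held it at least 2 times, as the Cish window did. The windows of Il2rg, Jak1, Jak3, Stat5a, Stat5b and Pim1 did not hold these letters. A match is a description of the sequence and not a measured binding site.

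Il7r (chromosome 15, 9505788 to 9530176, minus strand, mm10; GENCODE vM21 for all positions) was the member most sharply divided between the populations. Large pre-B cells held 94.8 FPKM in Control and 77.0 FPKM in CKO, and small pre-B cells 140.4 and 112 FPKM. In the thymocytes, again Control first, cycling cells held 0.867 and 0.779 FPKM and quiescent cells 0.390 and 0.379 FPKM. Granulocytes held 0.566 and 1.03 FPKM. All 4 pre-B libraries thus lay far above the other 6, small above large, while cycling thymocytes and granulocytes overlapped at the bottom of the scale. A lower level in bulk RNA can reflect fewer cells of a type or less RNA per cell, and these cannot be told apart.

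Il2rg (chromosome X, 101264378 to 101268255, minus strand), the shared receptor chain, was highest in thymocytes. It was at 92.1 FPKM in Control and at 78.6 FPKM in CKO cycling thymocytes and at 129 and 101 FPKM in quiescent ones. Small pre-B cells held 52.5 and 46.4 FPKM, large pre-B cells 27.6 and 28.3 FPKM, and granulocytes 27.8 and 17.7 FPKM. The lymphoid populations did not overlap with each other, and large pre-B cells and granulocytes did. Gm20489, annotated on the same strand, shares 728 of the 2387 exon bases of Il2rg, so some fragments could belong to either.

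Jak1 (chromosome 4, 101152367 to 101265282, minus strand), the kinase on the Il7r chain, was found throughout. Granulocytes held 209 FPKM in Control and 169.6 FPKM in CKO, the highest levels. Quiescent thymocytes followed with 115 and 104 FPKM, and cycling thymocytes held 54.4 and 56.5 FPKM. Small pre-B cells, at 65.1 and 45.6 FPKM, overlapped with cycling thymocytes, and large pre-B cells were lowest at 40.5 and 41.9 FPKM.

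The Jak3 row (chromosome 8, 71676296 to 71690575, plus strand), for the kinase on the gamma chain, stood lower and in another order. It was at 24.1 FPKM in Control and at 18.5 FPKM in CKO granulocytes, at 12.6 and 17.2 FPKM in large pre-B cells and at 8.82 and 18.1 FPKM in small pre-B cells. Thymocytes had the lowest values, 6.47 and 4.87 FPKM in cycling and 6.30 and 4.76 FPKM in quiescent cells. Large and small pre-B cells overlapped, as did the thymocyte populations, and all 4 thymocyte libraries lay below all 4 pre-B libraries. Insl3 and Jak3 share 404 exon bases of the 5352 of Jak3.

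Stat5a (chromosome 11, 100859351 to 100885169, plus strand) and Stat5b (chromosome 11, 100780731 to 100850724, minus strand) lie 8626 bases apart and encode near-identical transcription factors. Stat5a was at 71.8 FPKM in Control and at 61.2 FPKM in CKO cycling thymocytes and at 153 and 94.8 FPKM in quiescent thymocytes. In the other populations it was at 18.2 and 17.1 FPKM in granulocytes, 12.2 and 14.4 FPKM in large pre-B cells and 12.3 and 12.2 FPKM in small pre-B cells. Every thymocyte library was above every other library, and large and small pre-B cells overlapped.

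Stat5b, Control first, was at 88.0 and 78.3 FPKM in cycling thymocytes and 166 and 111 FPKM in quiescent ones. Granulocytes held 90.8 and 89.9 FPKM. In pre-B cells it was at 18.9 and 20.5 FPKM in the large and 21.9 and 20.8 FPKM in the small population. The pre-B libraries were again lowest, but granulocytes stood with the thymocytes for Stat5b and with the pre-B cells for Stat5a. Stretches of 50 bases that occur in transcripts of both genes made up 14.7% of those of Stat5a and 11.1% of those of Stat5b, so a minority of fragments could have been assigned to either gene.

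Socs2 (chromosome 10, 95385362 to 95417180, minus strand), which encodes an adaptor that marks signalling proteins for degradation, was highest in pre-B cells, as Il7r was. It was at 18.7 FPKM in Control and at 44.6 FPKM in CKO large pre-B cells and at 8.92 and 30.3 FPKM in small pre-B cells. Cycling thymocytes held 1.14 and 1.24 FPKM, quiescent thymocytes 0.541 and 0.932 FPKM, and granulocytes 0.111 and 0.568 FPKM. All 4 pre-B libraries were above the other 6, and in every population the CKO library had the higher value.

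Socs3 (chromosome 11, 117966079 to 117970047, minus strand), a potent inhibitor of gp130 and G-CSF receptor signals, had the reverse distribution. Granulocytes held 63.2 FPKM in Control and 68.4 FPKM in CKO. Quiescent thymocytes followed with 35.0 and 59.8 FPKM and cycling thymocytes with 22.7 and 43.4 FPKM. In pre-B cells it was at 1.45 and 2.45 FPKM in the large and 1.65 and 4.95 FPKM in the small population. The pre-B libraries were all below the other 6, and the CKO library was again the higher in every population. For Socs2 and Socs3 alike, the share of all genes with the same direction in every population was not counted.

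Cish (chromosome 9, 107296026 to 107302784, plus strand), a classical STAT5 target that restrains cytokine receptors, was highest in granulocytes. It was at 10.7 FPKM in Control and at 6.39 FPKM in CKO granulocytes, at 1.63 and 5.22 FPKM in large pre-B cells and at 1.75 and 6.32 FPKM in small pre-B cells. Cycling thymocytes held 1.35 and 1.30 FPKM and quiescent thymocytes 0.716 and 1.51 FPKM. Both Control pre-B values lay close to the thymocyte values, whereas both CKO pre-B values approached that of CKO granulocytes. Gm17040 and Gm17041 lie antisense to Cish over 261 and 479 exon bases, and no source used here says whether strand was used in counting.

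Pim1 (chromosome 17, 29490753 to 29496112, plus strand) was high in all 10 libraries. It was at 67.4 FPKM in Control and at 79.0 FPKM in CKO large pre-B cells and 163 and 162 FPKM in small pre-B cells. Cycling thymocytes held 94.5 and 142 FPKM, quiescent ones 74.0 and 159.8 FPKM, and granulocytes 128 and 170.4 FPKM. Each population overlapped with its neighbour in the order of levels, although small pre-B cells lay above large ones in both genotypes. The antisense gene Gm26885 shares 488 of its exon bases.

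**Figure D1:**
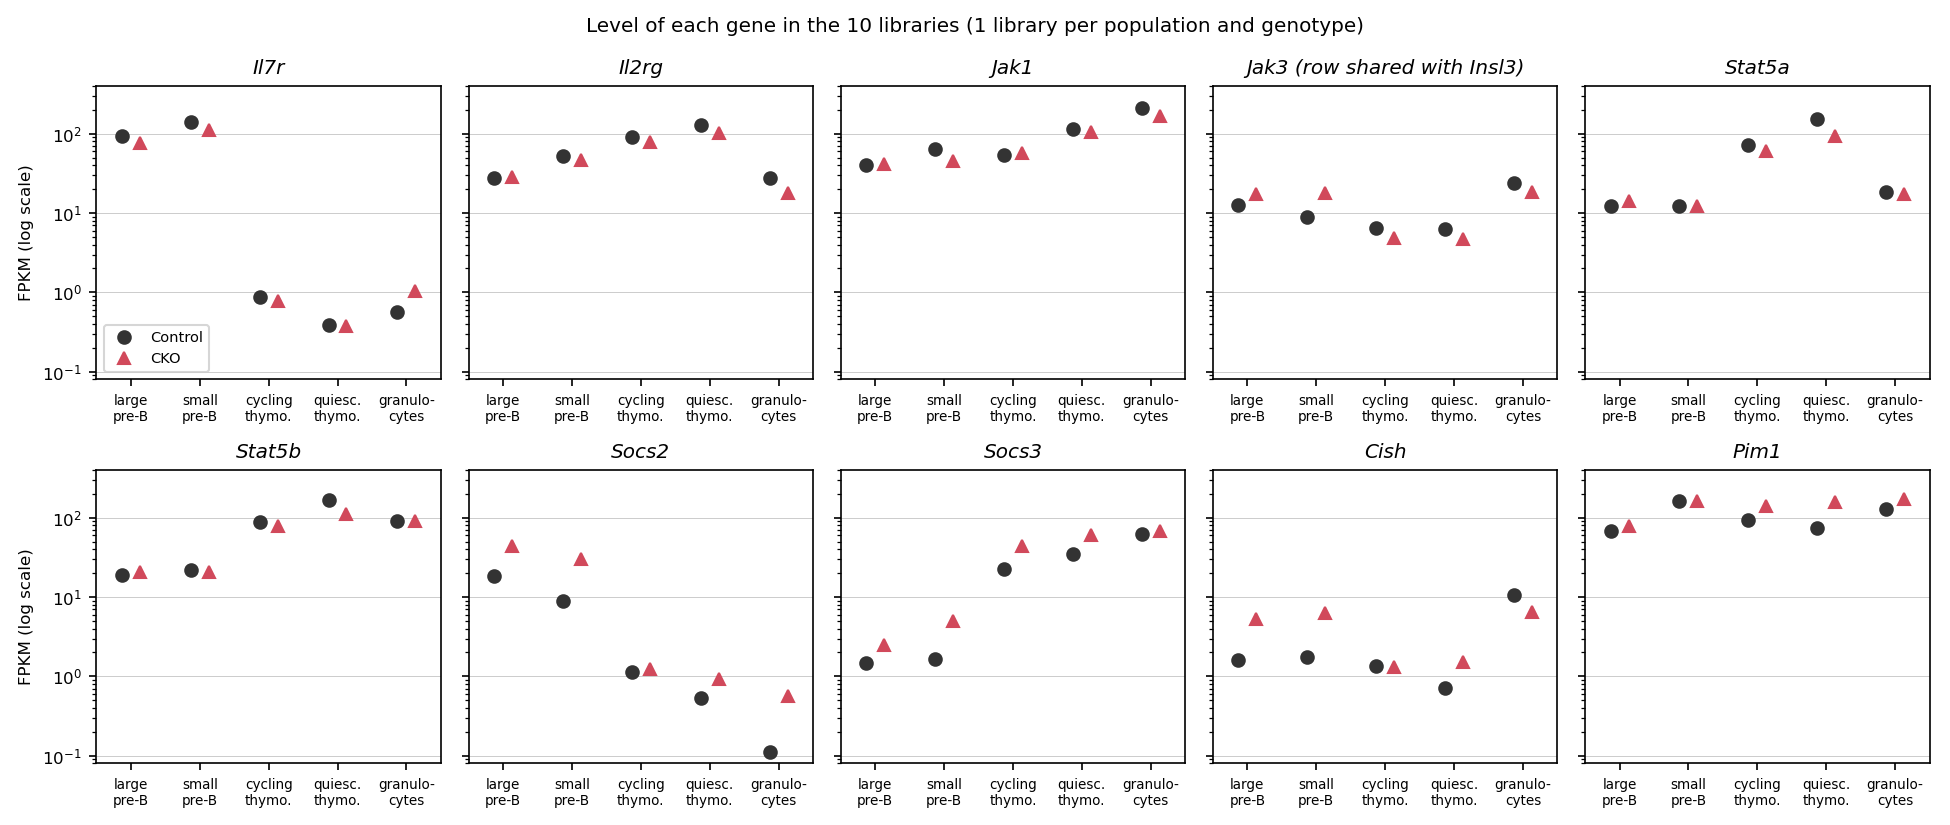
Level of each gene (FPKM, log axis) in the 5 populations, with 1 panel per gene, circles for Control and triangles for CKO libraries, each point 1 library. Il7r and Socs2 are high in the 4 pre-B libraries and near or below 1 FPKM elsewhere, Stat5a, Stat5b and Socs3 are low there, and Pim1 is high in every library.

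Pre-B cells were compared with thymocytes over the 8 lymphoid libraries with limma, genotype being a block, to ask how the pathway differs between the lineages. Of the 10 genes, 9 passed an adjusted p of 0.05, 4 higher and 5 lower in pre-B cells. Between the lineages 71.1% of the 11126 genes tested passed (36.9% higher, 34.3% lower), so a count of this size is near the background. The sizes are what describe the genes.

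On the log2(FPKM + 1) scale Il7r was higher in pre-B cells by 6.04 (SE 0.09, limma adjusted p = 6.7e-07) and Socs2 by 3.56 (SE 0.28, adjusted p = 0.000129). The Jak3 row was higher by 1.16 (SE 0.24, adjusted p = 0.00583) and Cish by 0.96 (SE 0.25, adjusted p = 0.0156). Lower in pre-B cells were Socs3 (-3.52, SE 0.12), Stat5a (-2.72, SE 0.15), Stat5b (-2.32, SE 0.12), Il2rg (-1.39, SE 0.08) and Jak1 (-0.71, SE 0.11), the last with an adjusted p of 0.00196. The specific receptor chain was therefore high in the lineage in which the shared chain, Jak1 and both STAT5 genes were lower. Pim1 differed by -0.04 (SE 0.18, adjusted p = 0.841).

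Il7r reached the filter of 1 FPKM in 2 libraries only through the pre-B cells; of the other 9 genes, 8 passed the test. The Cish call rested on CKO libraries. It missed the threshold, with differences of 0.87, 0.81 and 0.75, without the CKO library of quiescent thymocytes, of large pre-B cells or of small pre-B cells.

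Granulocytes were compared with pre-B cells over all 10 libraries in the same way, as the other marrow population. Of the 10 genes, 8 passed, where 77.8% of 11715 genes tested did (41% higher and 36.7% lower in granulocytes), again close to the background. Socs3 was higher in granulocytes by 4.30 (SE 0.20, limma adjusted p = 2.02e-06), Stat5b by 2.09 (SE 0.14, adjusted p = 9.11e-06) and Jak1 by 1.97 (SE 0.13, adjusted p = 8.98e-06). Il7r (-5.87, SE 0.16), Socs2 (-4.12, SE 0.32) and Il2rg (-0.72, SE 0.13) were lower. Thus STAT5B, JAK1 and SOCS3 transcripts were abundant in a cell type with almost no Il7r.

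Il7r passed the filter there only through pre-B cells. Socs2, under 1 FPKM in both granulocyte libraries, passed it through pre-B cells and cycling thymocytes (1.14 FPKM in Control and 1.24 FPKM in CKO). Of the 8 others, 6 were called. The Jak3 row (0.59, adjusted p = 0.103) and Pim1 (0.44, adjusted p = 0.0902) did not pass. The calls of Cish (1.12, SE 0.42, adjusted p = 0.0416) and Stat5a (0.44, SE 0.17, adjusted p = 0.0489) were marginal. Cish fell to 0.40 (adjusted p = 0.428) without Control granulocytes and was not called without the Control library of large (0.89) or small pre-B cells (0.84). Stat5a was not called in 5 of the 6 fits that left out a granulocyte or pre-B library (0.33 to 0.49), only the one without CKO large pre-B cells retaining the call. Rescaling by median ratios moved granulocytes against pre-B cells by 0.14 over all genes, and neither gene was then called (1.01 for Cish, 0.31 for Stat5a).

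The other genes of the pathway were read from lists of receptors, kinases, inhibitors and targets. Of 11 further gamma-chain receptor and ligand genes, 8 were tested, and 5 were higher and 3 lower in pre-B cells than in thymocytes. The median was 0.57 against 0.05 over all genes, of which 36.9% were called higher and 34.3% lower. Il2ra (2.86), which encodes the IL-2 receptor alpha chain, Il2rb (1.98), Il15 (1.83), Il15ra (0.79) and Crlf2 (0.34), the chain that joins Il7r in the TSLP receptor, were higher. Il4ra (-2.78), Il9r (-2.18) and Il21r (-1.62) were lower. Il2rb, also a marker of natural killer cells, ranged from 0.797 to 15.2 FPKM in the pre-B libraries. Il7 itself, a product of stromal cells, was at most 0.109 FPKM in any library and listed at 0 in the 4 thymocyte libraries.

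Of 6 other JAK and STAT genes, 1 was higher and 2 lower in pre-B cells, where 36.9% and 34.3% of all genes were. These were Tyk2 (1.15) against Stat3 (-1.97) and Jak2 (-0.93), and the list's median was -0.00094. In granulocytes against pre-B cells all 6 were called higher, where 41% of all genes were. The median was 1.95 where all genes had 0.03, led by Stat3 at 2.84, the transducer of G-CSF signals. Stat6, the IL-4 transducer and with Stat3 the most abundant of these genes, was higher in granulocytes by 2.19.

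Of 12 other inhibitors, 4 were higher and 5 lower in pre-B cells than in thymocytes (median -0.09), where 36.9% and 34.3% of all genes were. Socs1, which blocks JAK kinases directly, had the largest difference, -3.25 (SE 0.21, limma adjusted p = 6.75e-05). It was at 124 to 324 FPKM in thymocytes, 5.96 to 62.5 FPKM in pre-B cells and 9.88 and 20.0 FPKM in Control and CKO granulocytes. Cbl (-1.90), Socs7 (-1.43), Ptpn11 (-0.47) and Ptpn2 (-0.22) were also lower, whereas Pias3 (1.46), Sh2b3 (0.84), Ptpn6 (0.63) and Socs6 (0.28) were higher. Socs1 and Socs3 were thus both low and Socs2 high in pre-B cells, so the inhibitors of the family did not move as a group.

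Regulators of Il7r transcription were read beside it, 6 of the 7 listed being found. In pre-B cells Foxo1, which activates Il7r in lymphocytes, was higher by 0.59 (limma adjusted p = 0.00455). Only the small cells stood apart, at 111 FPKM in Control and 78.2 FPKM in CKO. Large pre-B cells, at 35.9 and 39.6 FPKM, overlapped with thymocytes, at 31.5 to 45.6 FPKM, unlike for Il7r. Gfi1, known as a repressor of Il7r, was lower in pre-B cells (-2.42, limma adjusted p = 4.14e-06). Foxo3 (-2.15), Ets1 (-2.07) and Runx1 (-0.48) were lower too, and Gabpa, an activator in T cells, differed by 0.04 (adjusted p = 0.693).

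**Figure D2:**
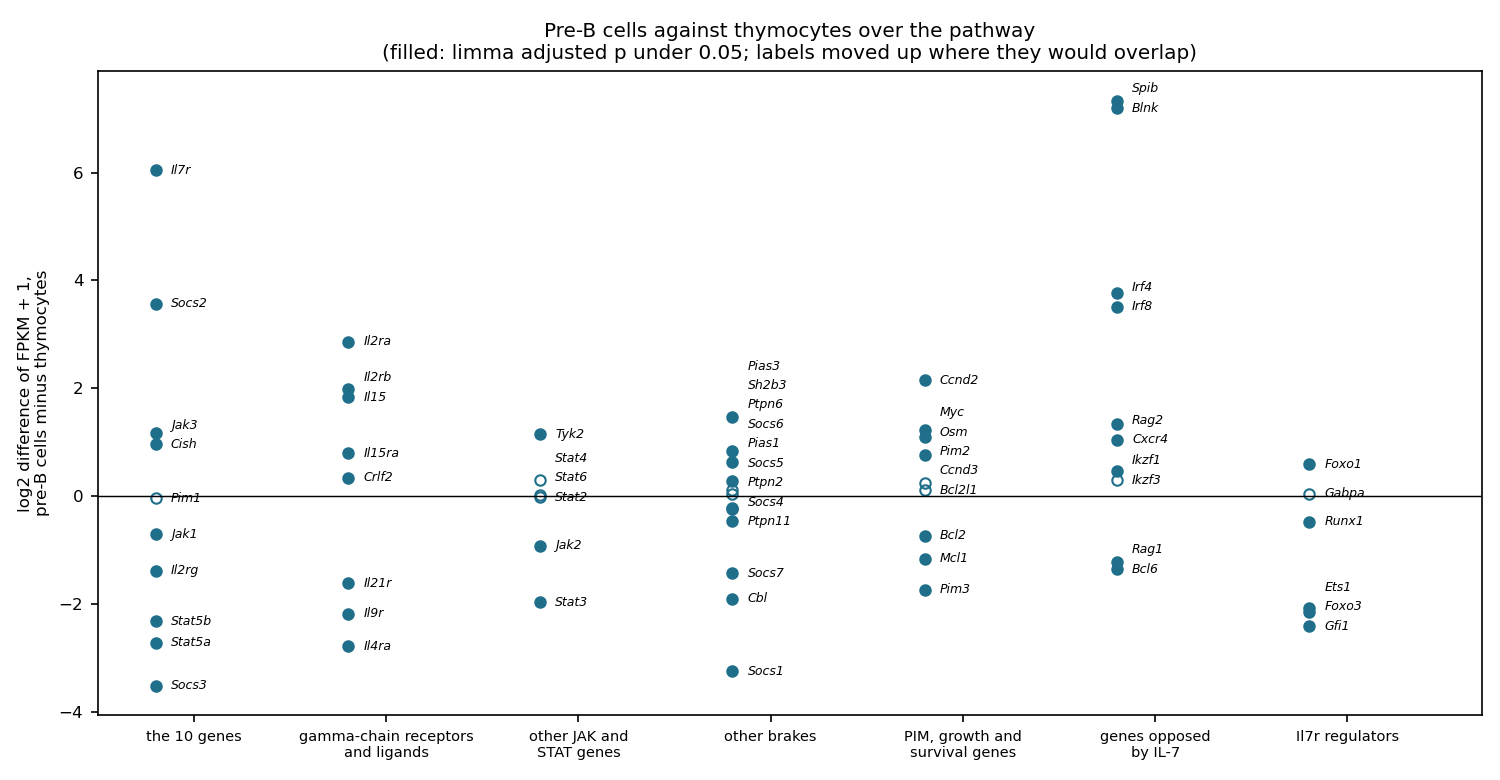
Fitted difference between pre-B cells and thymocytes (log2 of FPKM + 1, positive where pre-B cells are higher) for the 10 genes and the tested members of 6 lists of the pathway, each point 1 gene, filled where the limma adjusted p was under 0.05. Il7r at 6.04 and Socs3 at -3.52 mark the range of the 10 genes, and every list has members on both sides of 0.

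Quiescent were compared with cycling thymocytes and small with large pre-B cells, to ask whether the route changes as cells leave the cell cycle. A block was fitted for each lineage and genotype, so that each state effect rests on a Control and a CKO pair. The 6 proliferation genes listed had a median difference of -4.02 in quiescent thymocytes, with 6 called lower. In small pre-B cells the median was -1.86, with 1 called lower. Control small pre-B cells still held Mki67 at 35.0 FPKM, against 1.70 FPKM in Control quiescent thymocytes. In thymocytes 5 of the 10 genes passed, 4 higher and 1 lower in quiescent cells, where 44.9% of the genes tested did (25.2% higher, 19.7% lower). Jak1 was higher by 0.97 (SE 0.16, limma adjusted p = 0.00896), Stat5a by 0.85 (SE 0.14, adjusted p = 0.00978), Stat5b by 0.70 (SE 0.13, adjusted p = 0.0122) and Il2rg by 0.42 (SE 0.11, adjusted p = 0.025). The shared chain, the kinase of the Il7r chain and both STAT5 genes were therefore each higher in the quiescent cells, in Control and in CKO alike. The Jak3 row did not pass (-0.03, adjusted p = 0.906).

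Il7r was lower in quiescent thymocytes by a difference of -0.40 (SE 0.11, adjusted p = 0.0317), with all 4 values under 1 FPKM. The Control pairs had the larger rise for Jak1 (1.07 against 0.87 in CKO), Stat5a (1.08 against 0.62), Stat5b (0.91 against 0.50) and Il2rg (0.48 against 0.36). The quiescent CKO library also kept transcripts of dividing cells: Mki67, a proliferation marker, was at 1.70 FPKM in Control and at 48.3 FPKM in CKO quiescent thymocytes, and all 6 proliferation genes listed were at least 2-fold higher in CKO. Neither the difference between the pairs nor the part of these genes in it was tested. Without the Control pair no member was called (Jak1 0.87, adjusted p = 0.0896), and without the CKO pair 3 were: Jak1, Stat5a and Stat5b. Il7r was called in none of the 4 fits that left out a pair, and Il2rg only in the fit without the CKO pre-B pair.

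In pre-B cells 4 of the 10 genes passed, 3 higher and 1 lower in small cells, where 47.4% of the genes tested did (25.6% higher, 21.8% lower). Pim1 was higher by 1.14 (SE 0.15, limma adjusted p = 0.00527), Il2rg by 0.80 (SE 0.11, adjusted p = 0.00526) and Il7r by 0.55 (SE 0.11, adjusted p = 0.0128). Socs2 was lower, at -0.77 (SE 0.16, adjusted p = 0.0151). Both receptor chains were thus higher in the small than in the large cells, in both genotypes. Stat5a (-0.11, adjusted p = 0.571) and Stat5b (0.11, adjusted p = 0.517), which rose in quiescent thymocytes, did not pass. Without the Control pre-B pair no member was called, with Pim1 at 1.03, Il2rg at 0.69, Il7r at 0.53 and Socs2 at -0.54; without the CKO pair Il2rg alone was (0.90).

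In that fit the state effects of the lineages were then compared with each other, a contrast that 6.84% of genes passed (3.22% higher). Of the 10 genes, 2 passed it, both higher. The state effect was larger in pre-B cells than in thymocytes by 0.94 for Il7r (SE 0.15, limma adjusted p = 0.035) and by 1.23 for Pim1 (SE 0.21, adjusted p = 0.0398). Il7r rose in small pre-B cells in both genotypes (0.56 in Control, 0.53 in CKO) and fell in quiescent thymocytes in both (-0.42 and -0.37). Pim1 rose in small pre-B cells in both (1.26 and 1.03) but in thymocytes was lower in the Control pair (-0.35) and higher in the CKO pair (0.17). Stat5a, with -0.96, missed the threshold (adjusted p = 0.0564). The Il7r contrast was not called in any of the 4 fits that left out a pair (0.91 to 0.97), and the Pim1 contrast only in that without the CKO thymocyte pair (1.49).

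**Figure D3:**
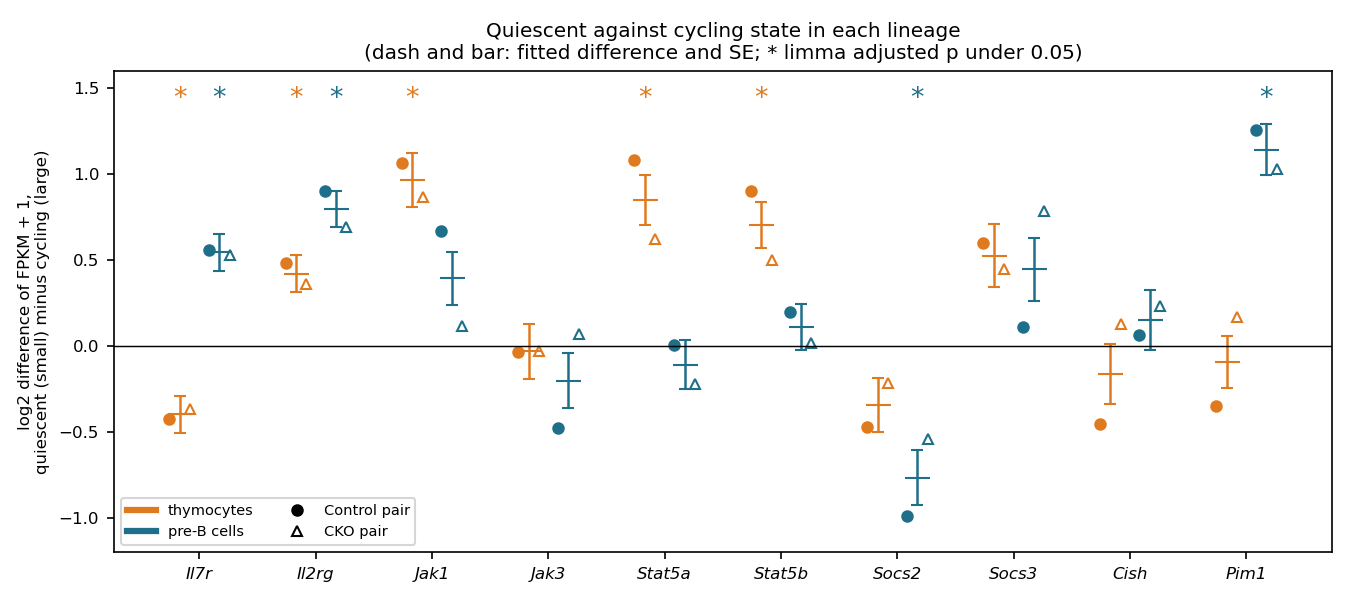
Log2 difference (FPKM + 1) of quiescent minus cycling cells for each gene, orange for thymocytes and blue for pre-B cells, circles for the Control pair and open triangles for the CKO pair; dash and bar are the fitted difference and its SE, and an asterisk marks a limma adjusted p under 0.05. Stat5a and Stat5b lie at 0.85 and 0.70 in thymocytes and near 0 in pre-B cells, and Pim1 at 1.14 in pre-B cells and -0.09 in thymocytes.

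Of the 6 other JAK and STAT genes, 5 were called higher in quiescent thymocytes, where 25.2% of all genes were. They were Stat4 (1.23), Stat3 (0.92), Tyk2 (0.75), Jak2 (0.60) and Stat2 (0.56), with a list median of 0.68 against 0.06 over all genes. In small pre-B cells 5 were called higher, where 25.6% of all genes were. They were Stat2 (1.03), Stat3 (0.91), Stat6 (0.84), Tyk2 (0.67) and Jak2 (0.45), with a list median of 0.75 against 0.04. None was called lower in either lineage. Socs1 rose in both as well, by 1.11 in thymocytes and by 2.09 in pre-B cells, from 11.6 to 62.5 FPKM in the Control and from 5.96 to 24.0 FPKM in the CKO pre-B pair. It was the 1 inhibitor of 12 called in thymocytes, where 25.2% of all genes were called higher. Socs5 (0.86), Sh2b3 (0.84) and Ptpn6 (0.52) rose with Socs1 in small pre-B cells, where 25.6% were.

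Of the 8 gamma-chain receptor and ligand genes tested, 5 were higher and 1 lower in small pre-B cells (median 1.06 against 0.04 over all genes, of which 25.6% were called higher and 21.8% lower): Il2ra (2.57), Il4ra (1.70), Il21r (1.51), Il15 (1.42) and Il15ra (0.69) against Il2rb (-1.42). In quiescent thymocytes 2 of the 8, Il21r (1.18) and Il4ra (1.09), were higher and Il9r (-0.87) lower, a share near the 25.2% of all genes called higher there. Il2ra encodes CD25, long used to stage pre-B cells, and was at 14.2 FPKM in large and 85.2 FPKM in small Control pre-B cells. Il2rb is also 1 of 8 listed markers of natural killer and innate lymphoid cells. Their sum was 105 FPKM in large and 15.0 FPKM in small Control pre-B cells, and 145 and 126 FPKM in CKO. The part of such cells in the Il2rb difference was not tested.

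Of 9 genes for growth and survival downstream of IL-7, 3 were higher and 4 lower in small pre-B cells (median 0.10), where 25.6% and 21.8% of all genes were. In small pre-B cells Pim2 (2.30), Mcl1 (1.22) and Bcl2l1 (0.93) rose with Pim1, whereas Myc (-1.97), Ccnd2 (-1.57), Ccnd3 (-1.04) and Bcl2 (-0.87) fell. Mcl1 and Bcl2l1 protect cells from apoptosis, and Myc and the D-type cyclins promote entry into the cell cycle. In quiescent thymocytes Mcl1 (0.99) and Pim2 (0.59) rose and Ccnd3 (-0.41) fell (median -0.14 against 0.06 over all genes, of which 25.2% were called higher and 19.7% lower).

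Of 10 genes that IL-7 signals are known to hold down or that oppose them in pre-B cells, 8 rose in small pre-B cells and none fell (median 0.75 against 0.04 over all genes, of which 25.6% were called higher and 21.8% lower). They included the recombinase gene Rag1 (2.60) and the transcription factor genes Spib (1.95), Ikzf3 (1.82) and Irf4 (0.91), with Cxcr4 (0.72), Rag2 (0.72), Bcl6 (0.67) and the adaptor gene Blnk (0.61). In quiescent thymocytes Rag1 (1.13) and Bcl6 (0.51) rose and Spib (-1.01) fell. Foxo1 rose in small pre-B cells by 1.28 (limma adjusted p = 0.00527), as Il7r did, and Foxo3 (0.95) and Ets1 (0.54) with it. In quiescent thymocytes Ets1 (0.92), Gfi1 (0.71) and Foxo3 (0.57) were the regulators called.

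CKO was first compared with Control in each population, where 1 library stood against 1 and no test can be made. A gene counted as different at a log2 ratio of FPKM + 1 of at least 1 with the higher of the libraries at 5 FPKM or more. The shares of all genes that met this in either direction differed widely: 0.954% of genes considered in cycling thymocytes, 5.26% in quiescent thymocytes, 2.33% in granulocytes, 1.84% in large and 6.3% in small pre-B cells. Of the 10 genes, 2 passed in large pre-B cells and 2 in small pre-B cells, Socs2 and Cish each time, 1 in quiescent thymocytes, Pim1, and none in cycling thymocytes or granulocytes. All were higher in CKO, where the shares of genes higher were 0.871%, 4.52% and 3.66%.

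The ratio for Socs2 was 1.21 in large and 1.66 in small pre-B cells, and that for Cish 1.24 and 1.41. Each of these CKO pre-B values lay above both Control pre-B values of its gene. The share of all genes separated in this way was not counted, so this is a description only. The Pim1 ratio in quiescent thymocytes was 1.10, and in cycling thymocytes 0.58. Just outside the rule were Socs3 in small pre-B cells, whose ratio of 1.17 came with 4.95 FPKM in the higher library, and the Jak3 row there, with 0.96. Socs3 had ratios of 0.91 and 0.76 in cycling and quiescent thymocytes.

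Receptor and transducer genes moved less or the other way. Il7r had ratios of -0.30 and -0.33 in large and small pre-B cells. The STAT5 genes were lower in CKO quiescent thymocytes, Stat5a at -0.69 and Stat5b at -0.57, and differed by no more than 0.23 in size in the other populations. In granulocytes the ratio was -0.66 for Cish and -0.62 for Il2rg.

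**Figure D4:**
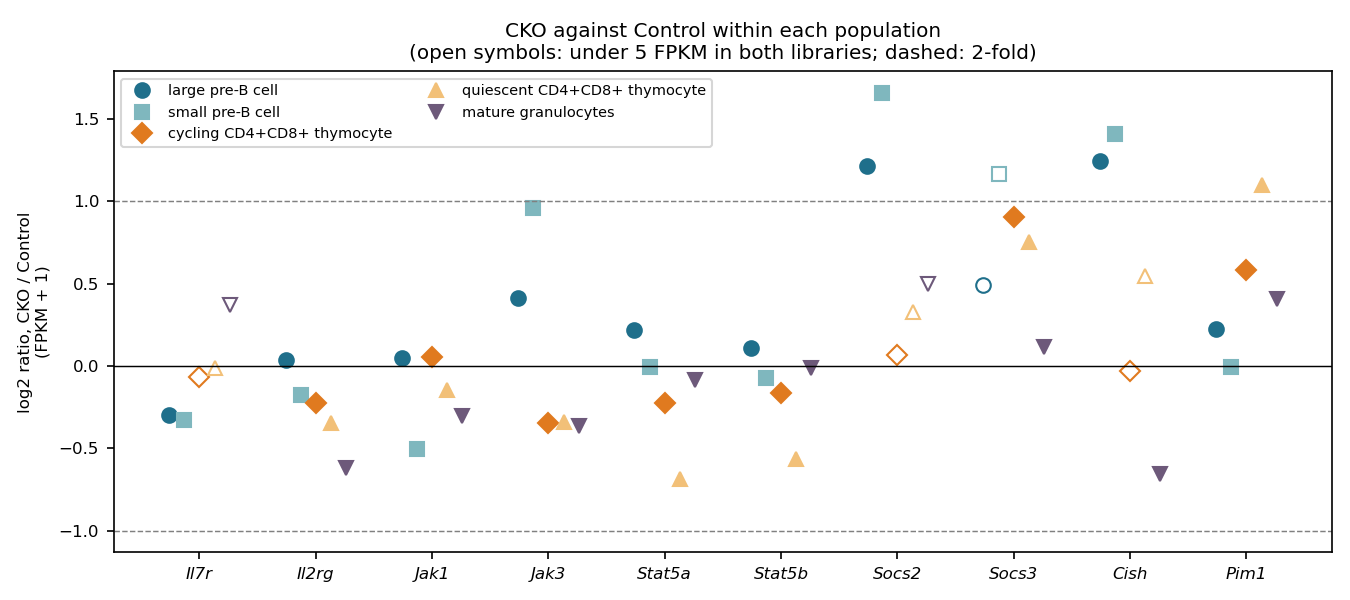
Log2 ratio of CKO over Control (FPKM + 1) for each gene, with 1 symbol per population, each from 1 library per genotype; open symbols have under 5 FPKM in both libraries and dashed lines mark 2-fold. Socs2 and Cish lie above the upper line in large (1.21 and 1.24) and small (1.66 and 1.41) pre-B cells, and Pim1 in quiescent thymocytes (1.10).

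With 1 genotype effect fitted for all populations, no member passed. Over the 5 populations 6 genes of 11715 did (0.0512%), with 1970 at an unadjusted p under 0.05, and over the 4 lymphoid populations 4 genes of 11126 (0.036%), with 1867. Over the lymphoid populations Socs3 differed by 0.83 (SE 0.12, limma adjusted p = 0.141, higher in CKO in 4 of 4), Socs2 by 0.82 (SE 0.28, adjusted p = 0.259), Cish by 0.79 (SE 0.25, adjusted p = 0.253) and Pim1 by 0.48 (SE 0.18, adjusted p = 0.285).

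A genotype effect per lineage was added after these values had been seen. In pre-B cells 144 genes (1.29%, 0.611% higher) passed it, among them 2 members: Socs2, higher in CKO by 1.43 (SE 0.16, limma adjusted p = 0.0348), and Cish, by 1.33 (SE 0.18, adjusted p = 0.0437). Socs3 (0.83, adjusted p = 0.105), the Jak3 row (0.69, adjusted p = 0.119) and Il7r (-0.31, adjusted p = 0.236) missed the threshold. Both calls are fragile. With a pseudocount of 0.1 the adjusted p was 0.077 for Socs2 and 0.091 for Cish, without the filter on low values 0.13 and 0.147, and after rescaling by median ratios 0.059 and 0.064. In thymocytes 13 genes passed (0.117%) and no member did, with Pim1 at 0.84 (adjusted p = 0.104) and Socs3 at 0.83 (adjusted p = 0.147). The difference of the effect between the lineages passed for 1 gene in all (0.00899%) and for no member, with 1597 genes at an unadjusted p under 0.05. It was 1.24 for Socs2 (SE 0.23, adjusted p = 0.134) and 1.07 for Cish (SE 0.25, adjusted p = 0.168), so a genotype difference particular to pre-B cells was not shown.

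Markers of other cells and of interferon moved with genotype in the same pre-B libraries. In small pre-B cells all 8 markers of natural killer and innate lymphoid cells were higher in CKO, their sum going from 15.0 to 126 FPKM, and all 6 plasmacytoid dendritic cell markers, from 45.2 to 339 FPKM. In large pre-B cells 7 of 8 and 4 of 6 were higher, with sums of 105 and 145 FPKM and of 78.4 and 90.3 FPKM. No marker of either list was listed at 0 in a pre-B library. The early progenitor list summed to 158 and 433 FPKM in large and 86.2 and 358 FPKM in small pre-B cells, mostly Dntt, which is also a gene of B cell precursors. The B lineage sum was 1876 and 2164 FPKM in large and 3782 and 3052 FPKM in small pre-B cells, Control first. Other lists went the other way. All 7 granulocyte markers were lower in CKO in both populations, with sums of 635 and 285 FPKM in large and 65.1 and 43.8 FPKM in small cells. In large pre-B cells all 4 macrophage markers (30.6 and 15.8 FPKM) and all 5 erythroid markers (144 and 78.9 FPKM) were lower too. In small ones 2 of 4 and 3 of 5 were higher.

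Of the 8 interferon-stimulated genes listed, 1, Isg15, was called higher in CKO pre-B cells (1.37, limma adjusted p = 0.0364), where 0.611% of all genes were. In small pre-B cells all 5 with at least 5 FPKM were higher, 4 of them 2-fold, with a median ratio of 1.49, and in large pre-B cells all 4 were, 1 of them 2-fold. Proliferation genes were at least 2-fold higher in CKO small pre-B cells in 5 of 6, where 4.52% of all genes considered were. The part of any of these in the Socs2 and Cish differences was not tested.

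Beside these, 1 of the 8 tested gamma-chain genes was called in CKO pre-B cells, where 1.29% of all genes were. This was Il2ra, lower by a difference of -1.68 (SE 0.13, limma adjusted p = 0.0159). It was at 14.2 FPKM in Control and at 3.53 FPKM in CKO large pre-B cells and at 85.2 and 27.4 FPKM in small ones. Of the genes opposed to IL-7, Ikzf3, which encodes Aiolos, was called lower (-0.80, adjusted p = 0.0437), and the list's median was -0.36. No gene of the other JAK and STAT list, of the inhibitors, of the growth and survival genes or of the Il7r regulators was called. Socs1 (-1.10, adjusted p = 0.0579), which unlike Socs2 and Cish was lower in CKO in both pre-B populations, and Il2rb (1.76, adjusted p = 0.0706), a gene also counted among the natural killer markers, also missed the threshold.

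Genes whose level most resembled those of 5 members over the 10 libraries were ranked by Pearson's r of log2(FPKM + 1) among 9002 genes. The points share 2 pools of mice and 1 scaling per library, and r is given as a description. Il7r was followed by Dennd5b (0.998), the receptor kinase gene Epha2 (0.998), the B cell coactivator gene Pou2af1 (0.997), Cplx2 (0.996) and Blnk (0.996), all higher in the 4 pre-B libraries than in the others. Socs2 was followed by Gfra2 (0.984), Bfsp2 (0.984), Fam70a (0.980), Ccdc135 (0.980) and the surrogate light chain gene Vpreb2 (0.979). In this second group the CKO library had the higher value in both pre-B populations for each gene, as it did for Socs2; Vpreb2 was at 87.0 and 152 FPKM in large and at 38.1 and 156 FPKM in small pre-B cells.

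Socs3 was most like Sesn2 (0.988), Cd164 (0.985), Cd274 (0.985), which encodes PD-L1, Pdpk1 (0.982) and Nfil3 (0.980), all lower in pre-B cells than elsewhere. Cish was most like Tlr7 (0.934), Etv6 (0.933), Runx2 (0.931), Gbp7 (0.926) and Nek6 (0.925). Of these Runx2 was among the plasmacytoid dendritic cell markers, at 1.06 FPKM in Control and 28.1 FPKM in CKO small pre-B cells. Pim1 had looser partners: the NF-kappaB gene Rel (0.915), Bdp1 (0.881), the stress-response gene Gadd45b (0.877), Zfp866 (0.868) and Spag9 (0.826).

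Among the 10 genes themselves, the highest r was that of Il7r with Socs2 (0.94) and the lowest that of Il7r with Stat5b (-0.97), both following the split of pre-B cells from the other populations. Socs3 went with Stat5b (0.93), the Jak3 row with Cish (0.91), and Stat5a with Stat5b (0.81).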

How the data were processed

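The authors deposited 1 table of gene-level values per library, read here as FPKM from the tools named and from the values. TopHat2 2.0.8b, Cuffdiff 2.1.1 and the build mm10 are named per the submitters' processing notes; the annotation and strand setting are not given in the sources used here. Total RNA was extracted with RNeasy kits, per the labels' protocols. Each table held 23179 rows, of which 201 were exact repeats and 163 named several genes; 22923 symbols were kept. Every table column belonged to a sample of the series.

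Tests were limma-trend fits (limma 3.58.1 in R 4.3.3) of log2(FPKM + 1), which understates changes of low genes, for genes with at least 1 FPKM in 2 fitted libraries, with Benjamini-Hochberg adjustment over all genes and a threshold of 0.05. Fits had 2 to 4 residual degrees of freedom. The libraries of a genotype come from 1 pool of mice, so variation among animals does not enter the p-values. All scripts for fits were tested on simulated data. The 10 genes, the lists and the tests were chosen with earlier results of these data known. A listed gene that is not reported here was left out of the lists' counts. Named genes were all 10, the list genes called and per list the 2 most abundant, of which the text gives those it needs, and the 5 genes most like each of 5 members. Alternatives were pseudocounts of 0.1 and 5, no filter, at least 5 FPKM in 2 libraries, median-ratio rescaling, a fit with population and genotype alone, and omission of libraries or pairs. Figures were drawn with matplotlib 3.10.9 in Python 3.11.15.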

Additional observations from a re-analysis of the deposited data

Results flagged for a closer look

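The state effect, quiescent against cycling thymocytes or small against large pre-B cells, differed between the lineages for 2 genes, by the test of that difference. For Il7r it was larger in pre-B cells than in thymocytes by 0.943 on the log2(FPKM + 1) scale (limma adjusted p = 0.035), and for Pim1 by 1.235 (limma adjusted p = 0.0398). The Il7r values in thymocytes were all under 1 FPKM, and both calls were lost in most fits that left out a pair of libraries. The 6 proliferation genes listed had a median state effect of -4.02 in thymocytes and -1.86 in pre-B cells, and 0 of them passed the same contrast. Lineage and the extent of exit from the cell cycle cannot be told apart here.

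The Jak3 row, shared with Insl3, was higher in CKO in both pre-B populations (0.41 and 0.96) and lower in CKO in both thymocyte populations (-0.35 and -0.34), as it was in granulocytes (-0.36). The difference of the genotype effect between the lineages was 1.031, and its test did not pass (limma adjusted p = 0.16). No group held 4 libraries, so single libraries were not tested against their group.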

How the results depend on the processing

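No called member changed direction under the alternatives run. Of 325 refits of called members, 269 kept the call and 56 lost it, a pooled count over unlike contrasts. Il7r kept it in all 13 refits of pre-B cells against thymocytes. Il7r and Pim1 each kept it in 4 of 10 refits of the lineage difference in state effect. For CKO in pre-B cells Socs2 kept it in 2 of 5 refits and Cish in 1 of 5. With 1 library per population and genotype there are no replicate numbers to pair by. Libraries were instead paired through the design, the fits having blocks by population, by genotype, or by lineage and genotype. The number of genes called for CKO over 5 populations was 2 with a pseudocount of 5, 1 without the filter and 1 to 4 without a pair; over 4 lymphoid populations it was 10 with a pseudocount of 0.1, 2 with 5, 0 without the filter (where no member passed either) and 0 to 1 without a pair. Leaving out pairs gave 4 to 3795 genes and 0 to 5 members for quiescent thymocytes, 3 to 4972 genes and 0 to 4 members for small pre-B cells, and 0 to 359 genes and 0 to 1 member for the lineage difference. That difference gave 361 genes and 1 member with a pseudocount of 0.1, 0 and 0 without the filter, and 1 and 0 with population and genotype alone in the fit. For CKO in pre-B cells, genes and members were 26 and 0 with a pseudocount of 0.1, 217 genes with 5, 0 and 0 without the filter, 80 and 1 at 5 FPKM, and 39 and 0 rescaled. In thymocytes the genes were 29, 49, 0 and 8 under 0.1, 5, no filter and rescaling, and the difference between lineages gave 0 without the filter. With a pseudocount of 5, 1 member each was 2-fold in large and small pre-B cells. Fits without a pair rest on fewer libraries, and the cause of any of these changes was not tested. Depth is unknown, so no counting error is given for values under 1 FPKM.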

Other observations

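Granulocytes held the highest levels of several ligand and receptor genes that use related JAK and STAT routes. Osm, a STAT5 target gene that encodes the cytokine oncostatin M, was at 158 and 263 FPKM in granulocytes, Control first, and at most 4.11 FPKM in any lymphoid library, a difference of 5.53 from pre-B cells (SE 0.16, limma adjusted p = 2.65e-07). Il15, which encodes a gamma-chain cytokine, was at 49.4 and 51.2 FPKM in granulocytes, 1.19 to 5.40 FPKM in pre-B cells and under 0.03 FPKM in thymocytes. Crlf2 was at 139 and 134 FPKM in granulocytes and at 11.7 to 22.4 FPKM in the lymphoid libraries, although the other chain of that receptor, Il7r, was at 0.566 and 1.03 FPKM in granulocytes.

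In thymocytes Il9r was higher in CKO in both states, at 4.10 and 6.63 FPKM in cycling and 1.29 and 4.11 FPKM in quiescent cells, and the added fit did not call it (0.87, limma adjusted p = 0.123). Stat4, which transduces IL-12 signals, was lower in CKO in both thymocyte populations (3.27 and 1.74 FPKM, then 10.7 and 4.52 FPKM) and higher in CKO in both pre-B populations (4.59 and 7.68 FPKM, then 2.86 and 8.28 FPKM).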
